A study of Mus musculus with 30 samples.

Results

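Expression of 368 protein-coding genes of mouse chromosome 12 was described in 30 bulk RNA-seq libraries of female mouse embryonic stem cells (mESCs). The cells were 129/Sv x Cast/Ei hybrids, so that reads over strain differences could be assigned to the 129 or the Cast chromosome. The genes were all protein-coding genes of the chromosome with a mean above 5 TPM (read counts scaled for exon length and library size) in the 2 XX Rnf12 libraries, without Esrrb, Dnmt3a, Npc2, Dlk1, Meg3, Rtl1 and symbols starting Rpl, Rps, Nduf or Cox. They were 368 of the 642 protein-coding genes annotated on the chromosome (GENCODE M21, mm10), of which 264 were at or under the TPM threshold and 10 were left out by symbol, and of the 55421 genes counted. By gene start, 126 lay up to 60 Mb, 68 between 60 and 80 Mb and 174 beyond 80 Mb.

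The 6 libraries of interest were 2 each of XX Wildtype, Deletion I-TEL and Deletion J. The other 24 libraries were 2 of XX Rnf12 (Rnf12+/-), 2 of XO XCastO129, 2 of XO X129OCast, and 18 of the heterozygous X-chromosome deletions A, B, AB, C, C-G, D, E, F, H, I and K. Every deletion line also carried the Rnf12+/- mutation, which is X-linked, so that only XX Wildtype was free of it among the XX lines. Per the study's methods, XX Wildtype is the hybrid line itself, deletions A to I and K were made in a first Rnf12+/- line, and J and I-TEL were made in a second, independently targeted Rnf12+/- line. The cassette used for selection stayed in the deletion clones, AB, C-G and I-TEL were larger losses found by PCR, and the XO lines had lost a whole X chromosome during the same work. Replicates of a deletion were independent clones. For the XX and XO lines the labels give only a replicate number, and the study describes its replicates as independent clones. Where replicates are not separate cultures, p-values measure only the spread between these samples, which may be technical. The 3 groups were selected on measured values and share a position in the pedigree, since none descends from the first Rnf12+/- line. The methods give an Rnf12+/- parent for the bulk samples, but do not say which of the 2 such lines gave the XO lines. The mutation is heterozygous and X-linked, so whether an XO line carries it depends on which X chromosome was lost. The study places the Rnf12 deletion on the Mus allele, its name for the strain that is not Cast. By the labels, XO XCastO129 kept only the Cast X and XO X129OCast only the other X. From such a parent, XO XCastO129 would lack the mutation, and XO X129OCast would carry only the mutated allele. For proteomics, the study lists its line with only the Cast X as Rnf12+. The other 24 libraries would thus differ in this genotype. XX Wildtype carries neither a deletion nor the Rnf12 mutation, and for I-TEL and J the deletion and the second parental line cannot be told apart.

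Both chromosomes of a pair are normally read at similar rates in an autosomal gene, so the level of its transcript and the share that comes from each parental chromosome move with the number of copies of each. Chromosome 12 carries genes for the proteasome and chaperones (Psma6, Psmc1, Hsp90aa1), nucleotide and polyamine synthesis (Rrm2, Odc1, Mthfd1), transcription factors (Mycn, Hif1a, Fos) and, in its distal part, the imprinted Dlk1-Dio3 cluster. Gains of a whole chromosome or of a segment are known to arise in cultured embryonic stem cells. No DNA was measured in these libraries. Copy numbers appear in what follows as arithmetic only: 2 copies of 129 beside 1 of Cast give a 129 share of 66.7%, 1 beside 1 gives 50%, and 1 beside 3 gives 25%. These ratios were set with earlier results of these data known. Values near them are therefore a description, and copy number was not tested.

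Library totals were 20374510 to 21180709 counts in the 6 libraries with the first name prefix, which hold XX Wildtype, XX Rnf12 and Deletion E, 8815980 to 10679746 in the 20 with the second, which hold all other deletion lines, and 14997997 to 16494587 in the 4 XO libraries with the third, which were sequenced as single reads where the others were paired. The members received 40556 to 128015 allele-assigned counts per library, and 323 of them had a mean of at least 20, the minimum for shares below unless the number of counts is given. The defining markers of mESCs summed to 4954 to 5298 TPM in the 6 libraries and to 4160 to 6037 TPM in the other 24. The 6 markers of the fibroblast feeders were all above 0, with sums of 91.0 to 255 TPM and 63.3 to 324 TPM. In bulk RNA, fewer cells with a given content and less RNA per cell cannot be told apart, and this holds for the allele shares too.

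In the other 24 libraries, the median 129 share of the members was 65.3 to 68.1% up to 60 Mb, 64.6 to 69.1% from 60 to 80 Mb and 67.1 to 69.7% beyond 80 Mb. The same 129-rich share thus ran along the whole chromosome, in XX, XO and deletion libraries of all 3 prefixes. Up to 60 Mb, the median share was 51.8 and 50.3% in XX Wildtype, 50.0 and 50.0% in I-TEL and 51.3 and 49.7% in J. From 60 to 80 Mb it was 41.6 and 43.5% in XX Wildtype, 40.0 and 40.9% in I-TEL and 41.7 and 40.4% in J. Beyond 80 Mb it was 28.7 and 26.7% in XX Wildtype, 27.6 and 27.9% in I-TEL and 27.9 and 26.6% in J. The 6 libraries thus lay below all other 24 in each segment, with even allele shares in the first segment and Cast-rich shares in the last. The means of the 3 groups were 51.0, 50.0 and 50.5% up to 60 Mb, 42.5, 40.4 and 41.0% from 60 to 80 Mb, and 27.7, 27.7 and 27.2% beyond 80 Mb, with pooled replicate SDs of 0.581, 1.05 and 0.764 points.

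**Figure D1:**
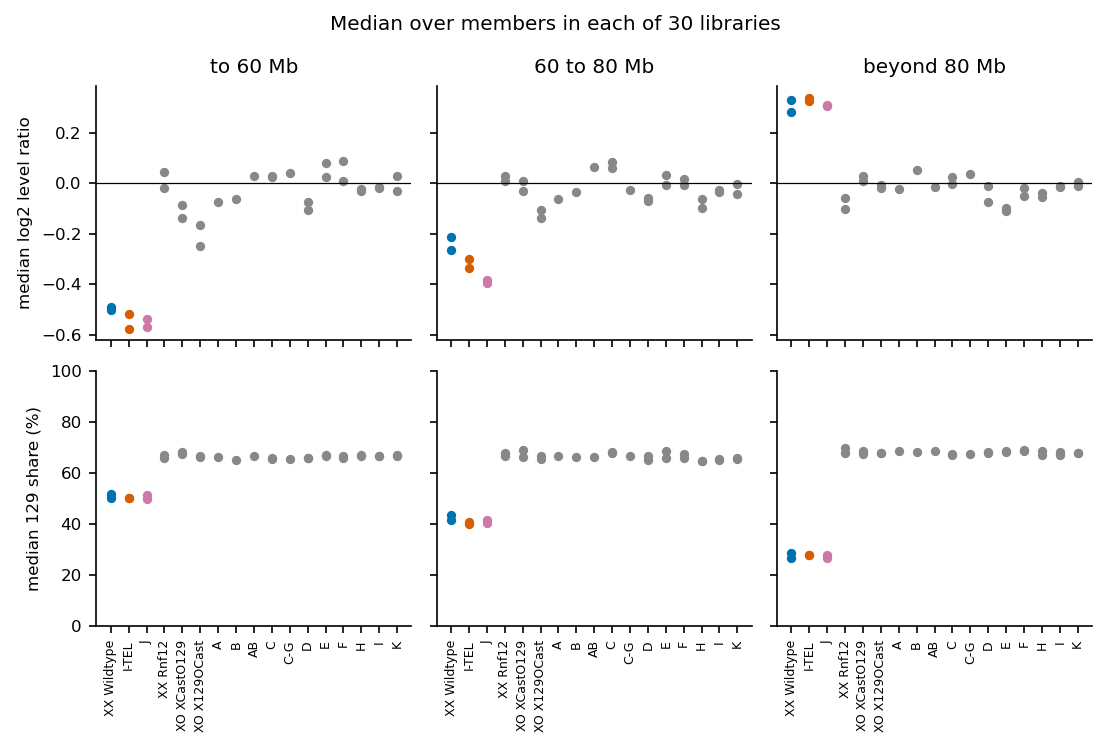
Median over the members of the log2 level ratio to the mean of the other 24 libraries (upper row) and of the 129 share of allelic counts in percent (lower row), 1 point per library, by condition and segment. The 6 XX Wildtype, I-TEL and J libraries (colours) lie below the other 24 (grey) in share in all 3 segments, and in level below them up to 80 Mb and above them beyond 80 Mb.

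The levels were taken as the log2 ratio of CPM (read counts scaled for library size only) to their mean over the other 24 libraries, with the library scaling set on genes of other chromosomes. Up to 60 Mb, the median ratio was -0.50 and -0.49 in XX Wildtype, -0.58 and -0.52 in I-TEL and -0.57 and -0.54 in J, against -0.25 to 0.09 in the other 24. The 4 XO libraries among these were at -0.25 to -0.09, with the same 129-rich share. From 60 to 80 Mb, the median ratio was -0.21 and -0.26 in XX Wildtype, -0.34 and -0.30 in I-TEL and -0.40 and -0.38 in J, against -0.14 to 0.09. Beyond 80 Mb, it was 0.28 and 0.33 in XX Wildtype, 0.34 and 0.33 in I-TEL and 0.31 and 0.30 in J, against -0.11 to 0.05. The 2 groups of libraries did not overlap in any segment. With only libraries of the same prefix as reference, XX Wildtype lay at -0.51 and -0.50, -0.33 and -0.32, and 0.34 and 0.38 in the 3 segments.

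The middle segment was a mixture of 2 kinds of genes. Windows of 10 Mb had 6-library median shares of 48.3 to 56.2% from 60 to 70 Mb, 29.6 to 35.6% from 70 to 80 Mb and 27.8 to 31.3% from 80 to 90 Mb. A single split of the gene order, placed to leave the smallest summed absolute deviation of the log odds ratio of 129 between the 24 and the 6 libraries, fell between Snapc1 and Ppp2r5e. Snapc1 (chr12:73964481-73988966), a subunit of the complex that starts transcription of small nuclear RNA genes, was the last gene before it. Ppp2r5e (chr12:75450881-75596245), a regulatory subunit of protein phosphatase 2A, was the first gene after it. The gap between them is 1.46 Mb. The same pair of genes was found in each of the 3 groups, in 4 of the 6 single libraries and with a mean TPM over 1. The split moved to Trmt5 and Tmem30b in XX Wildtype replicate 1, to Hif1a and Snapc1 in J replicate 2, and to Hif1a and Ppp2r5e with at least 50 allelic counts.

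The values beside the split were read gene by gene, with 95% Wilson intervals that cover counting error only. Hif1a, the oxygen-regulated transcription factor, had a 129 share of 52.3% (49.1 to 55.5%) of 920 counts in the 6 libraries and 68.0% in the other 24. Snapc1 had 46.7% (38.5 to 55.1%) of 135 counts and 66.3%. Ppp2r5e had 30.7% (26.4 to 35.4%) of 401 counts and 69.7%. Wdr89, the next member, had 26.4% (23.5 to 29.6%) of 783 counts and 69.0%. The intervals before and after the split did not overlap for these 4 genes. The split was placed on these same counts, so this is a description and no test. Of the 14 annotated genes that start between Snapc1 and Ppp2r5e, Rhoj alone had at least 15 allelic counts in the 6 libraries, with a share of 66.7% (41.7 to 84.8%) of 15 counts, which is too few to place it on either side. The mean log2 level ratio of the 6 libraries was -0.60 for Hif1a, -0.47 for Snapc1, 0.39 for Ppp2r5e and 0.23 for Wdr89.

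**Figure D2:**
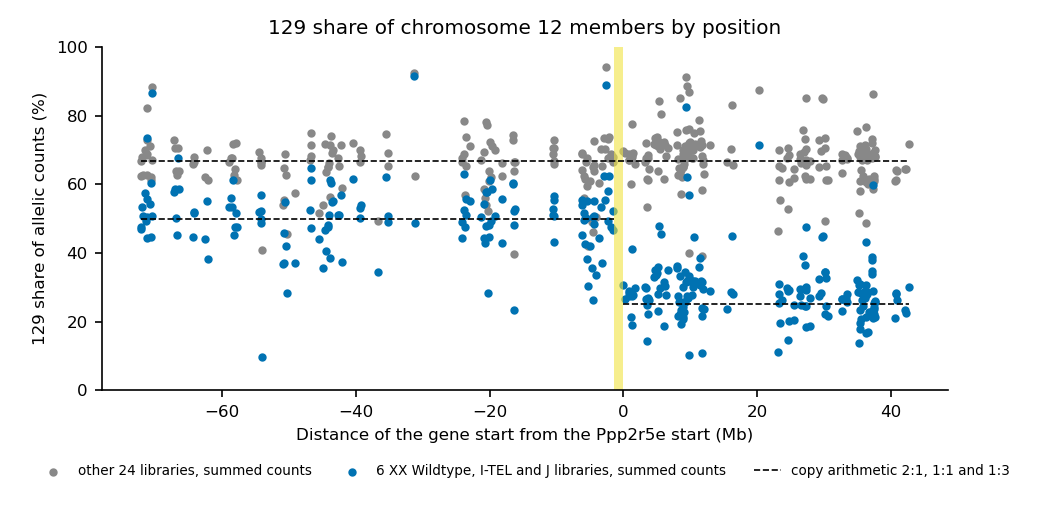
129 share of summed allelic counts of each member with a mean of at least 20 (percent) against the distance of its start from the Ppp2r5e start (Mb), in the 6 XX Wildtype, I-TEL and J libraries (blue) and the other 24 (grey). Dashed lines are the copy arithmetic, and the yellow band is the 1.46 Mb between Snapc1 and Ppp2r5e, across which the median of the blue points passes from 50.8 to 27.9%.

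The split was chosen on these shares, so what follows describes it and tests nothing. It put 169 members before it (126 up to 60 Mb and 43 from 60 to 80 Mb) and 199 after it (25 and 174), called proximal and distal here (the split is the step of the plots), since mouse chromosomes have their centromere at the low-coordinate end. The share of all allelic counts of the proximal members was 50.5 and 49.6% in XX Wildtype, 49.2 and 49.5% in I-TEL and 51.3 and 48.8% in J, against 65.0 to 66.7% in the other 24. The share of all counts of the distal members was 26.1 and 24.4%, 25.1 and 25.6%, and 25.6 and 24.7% in the same libraries, against 64.3 to 66.6%. In J replicate 1, the 95% Wilson intervals were 50.4 to 52.2% for the proximal and 25.2 to 26.1% for the distal share, and in J replicate 2 they were 48.0 to 49.7% and 24.3 to 25.1%. The median over genes beyond the split was 26.6 to 28.6%, a little above these pooled shares.

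Sequences just before the start of 3 members are shown because these genes mark the parts of the chromosome: Psma6, the most highly expressed proximal member, Snapc1, the last before the split, and Psmc1, a highly expressed distal member. They are RefSeq promoters of GRCm38.p6, plus strand, cut before the first annotated transcript base. Capitals mark a CCAAT box (CCAAT, either strand), and none of the 3 holds a GC box (GGGCGG) or TATA box (TATAAA) on either strand.
Psma6, chr12:55383972-55384221: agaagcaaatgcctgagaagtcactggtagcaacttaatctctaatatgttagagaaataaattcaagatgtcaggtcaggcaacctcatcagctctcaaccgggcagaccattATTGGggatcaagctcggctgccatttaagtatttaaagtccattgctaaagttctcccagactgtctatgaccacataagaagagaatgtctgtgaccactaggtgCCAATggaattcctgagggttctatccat
Snapc1, chr12:73964247-73964480: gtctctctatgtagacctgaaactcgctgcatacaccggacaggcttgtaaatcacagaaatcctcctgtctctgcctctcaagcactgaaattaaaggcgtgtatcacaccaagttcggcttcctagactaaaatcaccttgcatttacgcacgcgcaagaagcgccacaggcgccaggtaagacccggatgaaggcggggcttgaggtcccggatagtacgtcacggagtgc
Psmc1, chr12:100109952-100110153: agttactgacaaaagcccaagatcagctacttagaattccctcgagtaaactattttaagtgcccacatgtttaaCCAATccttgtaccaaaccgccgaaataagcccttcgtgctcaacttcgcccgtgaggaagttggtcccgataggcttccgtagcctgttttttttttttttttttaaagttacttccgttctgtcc
Promoters of 324 members were matched by symbol. In their 250 bases before the start, CCAAT was found in 36.7% of 150 proximal and 36.2% of 174 distal promoters, beside 34.5% of all 27025 promoters. GGGCGG was found in 64.7 and 60.9%, beside 32.9%, and TATAAA in 4.00 and 5.17%, beside 13.0%. Both sides thus held these letters at like rates, and a match is a description of letters and not of a bound site.

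The counts of the 2 alleles were then scaled separately, by size factors of allelic counts from other chromosomes, and set against their mean in the other 24 libraries. For proximal members, the median log2 ratio of 129 counts was -0.86 and -0.85 in XX Wildtype, -1.03 and -0.90 in I-TEL and -0.90 and -1.04 in J, against -0.15 to 0.09. The ratio of Cast counts was 0.03 and 0.11, -0.08 and -0.00, and -0.07 and -0.01, against -0.17 to 0.04. As medians over genes, 129 counts were at 0.525 times and Cast counts at 1.02 times the reference. For distal members, the ratio of 129 counts was -0.95 and -0.94, -0.95 and -0.96, and -0.96 and -1.02, against -0.07 to 0.02. The ratio of Cast counts was 1.39 and 1.50, 1.47 and 1.46, and 1.41 and 1.46, against -0.22 to 0.04. The ratio of 129 counts was thus alike on both sides of the split, and that of Cast counts went from 1.02 times the reference to 2.71 times as medians over genes. The arithmetic gives log2 ratios of -1 for the 129 counts and 1.58 for the distal Cast counts.

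**Figure D3:**
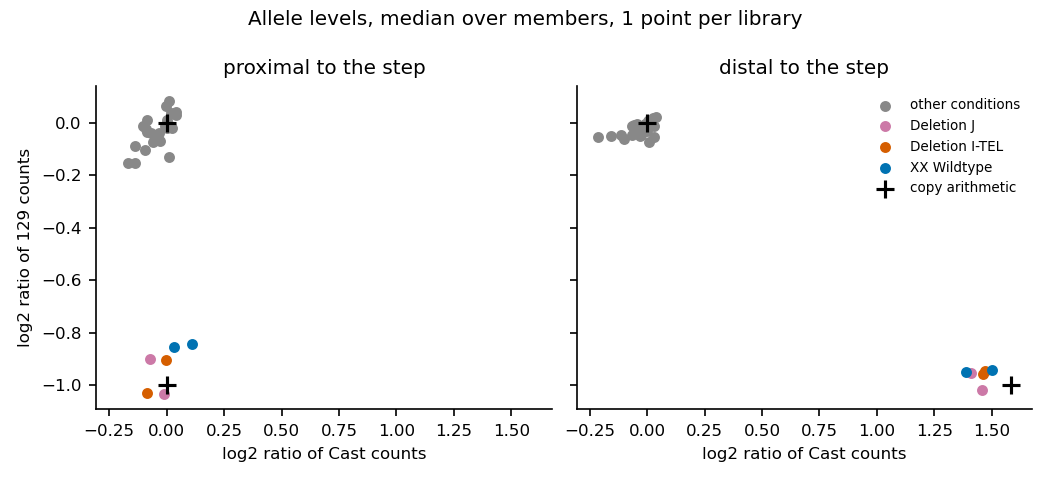
Median log2 ratio of scaled 129 counts (y axis) against that of scaled Cast counts (x axis) to the mean of the other 24 libraries, 1 point per library, for members proximal (left) and distal (right) to the split. The 6 libraries lie between -1.04 and -0.85 on the 129 axis in both panels, and on the Cast axis between -0.08 and 0.11 in the left and between 1.39 and 1.50 in the right panel. Plus signs mark the copy arithmetic.

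Gene by gene, the 129 share was lower in the 6 libraries than in the other 24 for all 144 proximal and all 179 distal members with enough counts. The 6 single libraries all lay below all other 24 in 48 of 144 and in 161 of 179 members, beside 2.65% of the 8342 expressed autosomal genes with enough counts, members included. The odds of 129 against Cast in the 24 divided by those in the 6 had a median of 1.96 (quartiles 1.77 and 2.13) for proximal and 5.54 (5.12 and 6.02) for distal members, where the arithmetic gives 2 and 6. Genes that were 129-poor in the 24 libraries were 129-poor in the 6 as well. The log odds in both sets of libraries had a Pearson r of 0.92 over the 144 proximal and 0.92 over the 179 distal genes, a description across genes that share libraries and read mapping.

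Members with an uneven allelic balance show the same steps from another starting point. Hsp90aa1, the inducible cytosolic HSP90 chaperone and the most abundant member, had a 129 share of 13.6 and 13.7% in XX Wildtype, 15.0 and 14.0% in I-TEL and 14.4 and 12.9% in J, against 44.7 to 58.9% (median 48.8%) in the other 24. Psmc1, an ATPase subunit of the proteasome, had 13.6 and 14.1%, 14.0 and 17.2%, and 15.7 and 15.4%, against 46.1 to 61.9% (median 51.4%). Tcl1, a co-activator of AKT expressed in mESCs, stood at the other end with 44.9 and 45.1%, 40.3 and 44.3%, and 50.2 and 44.4%, against 78.5 to 93.8% (median 85.5%). The odds ratios of these 3 genes were 6.67, 6.52 and 7.16. In Gstz1, a glutathione transferase of tyrosine breakdown, the pooled share was 10.8% in the 6 libraries and 39.2% in the other 24, and the odds ratio was 5.35.

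The furthest odds ratios within each side were looked up afterwards. Proximal members ran from 1.09 in Sf3b6 to 6.25 in Ywhaq, a 14-3-3 protein whose share was 9.80% of 204 counts in the 6 libraries and 41.0% in the other 24. Distal members ran from 2.23 in Ltbp2 to 11.3 in Acot2. Ltbp2, a matrix protein that binds latent TGF-beta, kept a 129 share of 82.6% in the 6 libraries and 91.4% in the 24. Ubxn2a, a proximal member, had 86.5 and 88.4%. Reads of near-identical copies, such as Acot1 and Acot2, may not be assignable to a single gene, so their values are uncertain.

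**Figure D4:**
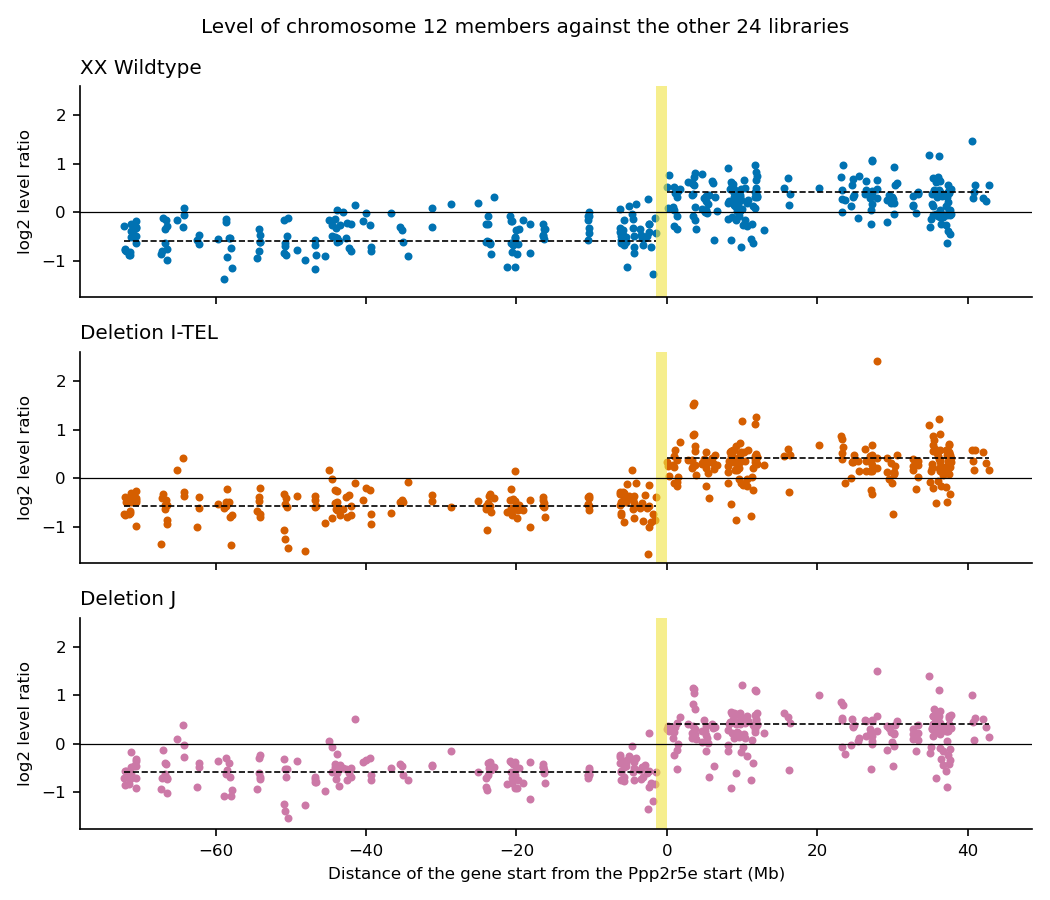
Mean log2 level ratio of each of the 368 members to the other 24 libraries against the distance of its start from the Ppp2r5e start (Mb), for XX Wildtype, I-TEL and J. Dashed lines are the copy arithmetic of 2 against 3 copies (-0.58) and of 4 against 3 copies (0.42), and in all 3 groups the points lie mostly below 0 before the yellow band and above 0 after it.

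Levels varied more between members. The mean log2 ratio of the 6 libraries had a median of -0.52 (quartiles -0.64 and -0.38) over the 169 proximal members and of 0.33 (0.13 and 0.47) over the 199 distal members. Over 8836 expressed protein-coding genes of the other autosomes without chromosome 8, it had a median of -0.04 (-0.17 and 0.09). As folds, the medians were 0.696 and 1.25, where 2 and 4 copies against 3 would give 0.667 and 1.33. The ratio was below 0 in 164 of 169 proximal members and above 0 in 162 of 199 distal members. Its SD over genes was 0.25 proximal and 0.34 distal, beside 0.28 on the other autosomes, so the spread among members was of the size seen there. All 6 libraries were below all other 24 in 28 proximal members and above them in 30 distal members, beside 0.464 and 0.518% of 11204 expressed autosomal genes.

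The 5 proximal members of highest level were Psma6, Rrm2, Odc1, Laptm4a and Pdia6. Psma6, an alpha subunit of the 20S proteasome, was at 708 and 700 TPM in XX Wildtype, 592 and 629 TPM in I-TEL and 678 and 643 TPM in J, against 572 to 1063 TPM (median 940 TPM) in the other 24. Rrm2, the small subunit of ribonucleotide reductase, was at 550 and 551, 604 and 629, and 604 and 613 TPM, against 623 to 995 TPM (median 856 TPM). Pdia6, a protein disulfide isomerase of the endoplasmic reticulum, was at 412 and 346, 413 and 394, and 418 and 427 TPM, against 429 to 645 TPM (median 524 TPM). In TPM, the 6 libraries overlapped the other 24 for Psma6, reached the lowest of them in 1 I-TEL library for Rrm2, and lay below all of them for Pdia6. Their mean log2 ratios were -0.49, -0.56 and -0.47. Laptm4a, a lysosomal membrane protein, was at 423 and 367, 309 and 356, and 315 and 347 TPM, against 232 to 655 TPM, and had too few allelic counts for a share.

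Odc1, the first enzyme of polyamine synthesis, had log2 fold changes against lines of its own prefix of -0.54 in XX Wildtype, -0.91 in I-TEL and -0.59 in J. The proximal quartiles were -0.60 and -0.38 in XX Wildtype, -0.70 and -0.37 in I-TEL and -0.72 and -0.37 in J. Odc1 thus lay below the quartiles in I-TEL and within them in XX Wildtype and J. It was at 418 and 365 TPM in XX Wildtype, 260 and 261 TPM in I-TEL and 330 and 299 TPM in J, against 281 to 1312 TPM (median 520 TPM). Klf11, a zinc-finger repressor, was at 46.6 and 48.6, 33.0 and 34.1, and 30.3 and 29.6 TPM, against 45.9 to 113 TPM (median 74.3 TPM). Ldah, a lipid droplet hydrolase, was at 10.5 and 7.53, 5.70 and 7.35, and 9.62 and 7.67 TPM, against 7.50 to 34.7 TPM (median 13.7 TPM). Among members up to 60 Mb with enough allelic counts, these were the 3 furthest below the median of their segment, with mean log2 ratios of -1.06, -1.12 and -1.04. Odc1 and Ldah moved to -0.72 and -0.69 when the reference held only libraries of the same prefix. Their 129 shares of 51.7, 45.8 and 57.6% were those of the other proximal members.

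Under the same condition, the members furthest above that median were Kcns3, Tmem18 and Gen1, at 0.17, 0.02 and -0.08. Kcns3, a potassium channel subunit, was at 6.99 and 8.89 TPM in XX Wildtype, 15.4 and 12.6 TPM in I-TEL and 12.7 and 14.0 TPM in J, against 5.32 to 14.9 TPM (median 9.52 TPM), and its share of 44.8% was as low as that of its neighbours. Tmem18, a nuclear membrane protein, was at 33.2 and 33.8, 40.3 and 47.0, and 40.4 and 38.0 TPM, against 19.7 to 52.1 TPM. Gen1, a Holliday junction resolvase, was at 9.48 to 13.8 TPM, against 7.55 to 18.9 TPM. Levels of all 3 overlapped those of the other 24. Their pooled shares were 44.8, 35.7 and 51.5%, where the 24 had 65.9, 54.0 and 68.1%. Together with Kcns3 and Tmem18, the proximal members with a mean ratio above 0 were Rdh14, Twist1 and Frmd6, looked up afterwards, at 0.03, 0.18 and 0.02.

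Members from 60 to 80 Mb followed their side of the split. Proximal Arf6, a small GTPase of endocytosis, was at 295 and 286 TPM in XX Wildtype, 258 and 250 TPM in I-TEL and 274 and 275 TPM in J, below the range of 337 to 517 TPM in the other 24. Fkbp3, a nuclear prolyl isomerase, and Psma3, a proteasome subunit, had mean log2 ratios of -0.47 and -0.51. Trmt5, a tRNA methyltransferase, was at 35.5 and 39.4, 33.8 and 33.7, and 33.5 and 37.7 TPM, below the range of 47.6 to 74.0 TPM. Distal Eif2s1, the alpha subunit of the initiation factor eIF2, was at 372 and 386, 295 and 330, and 336 and 324 TPM, above the range of 201 to 289 TPM in these units. Mthfd1, an enzyme of one-carbon folate metabolism, overlapped, at 399 to 500 TPM against 309 to 466 TPM, although its share of 28.3% was that of the distal side.

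The 3 members furthest above the median of the middle segment among those with enough allelic counts were Plekhh1, Pigh and Vti1b, which lie close together (chr12:79029163-79081655, chr12:79080664-79089651 and chr12:79156017-79172667). Vti1b, a SNARE protein of the endosome, was at 206 and 212 TPM in XX Wildtype, 199 and 190 TPM in I-TEL and 188 and 209 TPM in J, above the range of 78.2 to 138 TPM. Pigh, a subunit of the enzyme that starts GPI-anchor synthesis, was at 16.7 and 16.8, 18.7 and 21.1, and 22.1 and 20.5 TPM, above the range of 4.32 to 13.5 TPM. Plekhh1 was at 49.5 and 43.0, 93.8 and 98.2, and 68.9 and 70.2 TPM, against 15.8 to 46.4 TPM. Plekhh1 and Pigh overlap in the annotation on opposite strands, so that reads in the overlap depend on whether the counting used strand. Furthest below were the proximal genes Tmem30b (-1.06), 4930447C04Rik (-0.88) and Trmt5 (-0.81). In 4930447C04Rik, the ratio was 0.26 in XX Wildtype, -1.56 in I-TEL and -1.35 in J, and it was -0.67, -0.997 and -0.79 with the same-prefix reference.

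Fbxo33, the last member before 60 Mb, had a pooled share of 52.9% in the 6 libraries, and Gm527, the first after it, 56.0% of 25 counts. Rad51b, the last before 80 Mb, had 36.6% of 82 counts, and Zfp36l1, an RNA-binding protein that speeds mRNA decay and the first after it, 33.1%. The 4 mean log2 ratios were -0.64, -0.40, -0.06 and 0.45, where that of Rad51b turned to 0.00 with the same-prefix reference.

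Of the 5 most abundant members beyond 80 Mb, Psmc1 and Ckb lay above the range of the other 24 in TPM, and Hsp90aa1, Srsf5 and Tcl1 overlapped it. Hsp90aa1 was at 3443 and 3724 TPM in XX Wildtype, 3242 and 3410.1 TPM in I-TEL and 3487 and 3432 TPM in J, against 2144 to 3343 TPM (median 2676 TPM). Psmc1 was at 726 and 723, 653 and 634, and 741 and 685 TPM, above the range of 420 to 615 TPM. Ckb, the brain creatine kinase, was at 918 and 919, 1105 and 914, and 842 and 966 TPM, above the range of 226 to 678 TPM. The mean log2 ratio was 1.16 for Ckb, the furthest above the median of its segment among members with enough allelic counts, and its share of 28.6% was that of its neighbours. Srsf5, a splicing factor, and Tcl1 had mean log2 ratios of 0.10 and 0.25, while their 6 shares were below all 24.

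Gstz1 and Ism2 followed Ckb, with mean log2 ratios of 1.06 and 1.07. Gstz1 was at 76.7 and 90.2 TPM in XX Wildtype, 99.6 and 92.6 TPM in I-TEL and 92.1 and 94.4 TPM in J, above the range of 29.1 to 54.3 TPM. Ism2, a secreted protein, was at 23.8 and 21.4, 32.5 and 31.0, and 24.3 and 31.4 TPM, against 5.07 to 21.8 TPM. Furthest below were Adssl1, an enzyme of AMP synthesis (-0.67), Vrtn, a vertebral development factor (-0.55), and Irf2bpl, a zinc-finger regulator (-0.43). Vrtn was at -0.12 when the reference held only libraries of the same prefix. With that reference, Adssl1 was at 0.47 in XX Wildtype, -0.85 in I-TEL and -1.24 in J. Levels of Adssl1, Vrtn and Irf2bpl overlapped those of the other 24, whose own ranges were wide (4.18 to 74.6, 2.19 to 42.6 and 58.0 to 204 TPM). Their pooled shares of 34.6, 34.5 and 38.5% were Cast-rich, although Adssl1 had 81.0% in XX Wildtype replicate 1.

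**Figure D5:**
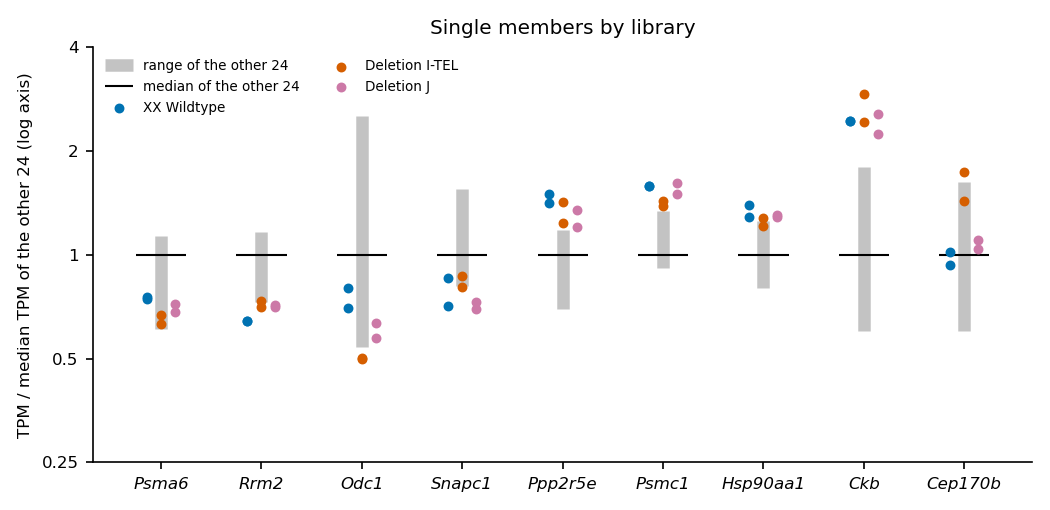
TPM of 9 members divided by the median TPM of the other 24 libraries (log axis), with the range of those 24 as grey bars and the 6 libraries as points. Psma6, Rrm2, Odc1 and Snapc1 before the split lie below 1 and Ppp2r5e, Psmc1, Hsp90aa1 and Ckb after it above 1, and Cep170b lies apart between I-TEL and J.

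Differential expression was fitted over 11703 expressed genes in all 30 libraries with the edgeR quasi-likelihood test and Benjamini-Hochberg adjusted p-values under 0.05, and each group was compared with lines of its own prefix. These are the contrasts the genes were chosen by, so nothing is read from the counts. In XX Wildtype against XX Rnf12 and Deletion E, 110 proximal members were called lower and none higher, and 107 distal members higher and 1 lower (Irf2bpl), beside 2.86% of all tested genes lower and 3.01% higher. A fit of the libraries of this prefix alone called 93 members in place of these 218. In I-TEL against the 10 other deletion lines of its prefix, 130 proximal members were lower and 1 higher (Kcns3), and 127 distal members higher and 4 lower (Dcaf4, Acot1, Vash1 and Crip2), beside 9.47% lower and 12.14% higher. In J, 137 proximal members were lower and none higher, and 117 distal members higher and 8 lower, beside 11.5% and 13.5%. Called in the same direction in all 3 comparisons were 93 proximal members, all lower, and 80 distal members, all higher, beside 1.49% of all tested genes lower and 1.36% higher. The I-TEL and J comparisons share their control libraries. Without XX Wildtype replicate 2, 129 members in place of 218 were called in XX Wildtype, and without J replicate 1, 172 in place of 262 in J.

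Lists of genes by function were laid over both sides. They were chosen with earlier results of these data known. Each list is given by its counts and its median mean log2 ratio, beside -0.52 and 0.33 for all members of the side and -0.04 on the other autosomes. Over all members, 93 of 169 proximal ones were called lower and 80 of 199 distal ones higher in all 3 comparisons. Of all tested genes, 1.49% were lower and 1.36% higher in all 3. These contrasts chose the genes, so nothing is read from the counts of a list. Of the chaperone and proteasome genes, all 3 proximal members were called lower in all 3 comparisons (median -0.49), and 6 of 9 distal members higher (0.39). Fkbp3 and Psma6 were among the former, and Hsp90aa1 and Psmc1 among the latter. Hspa2, a testis-enriched HSP70, was at -0.21 and was called in none. Of the translation and tRNA genes, 4 of 5 proximal members were lower (-0.63) and 4 of 6 distal members higher (0.39). Trmt61a, a tRNA methyltransferase subunit, had the highest ratio of these at 0.54, without a call in XX Wildtype. Of the RNA processing genes, 4 of 5 were lower (-0.53) and 8 of 10 higher (0.38), with Cpsf3, a pre-mRNA 3' end nuclease, at -0.62 and Zc3h14, a poly(A)-binding protein, at 0.50.

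Of the metabolic genes, 3 of 7 proximal members were lower (-0.63) and 5 of 11 distal members higher (0.40), where Odc1 and Ckb were the ends of the range. Of the membrane traffic genes, 6 of 9 were lower (-0.41) and 5 of 11 higher (0.34), with Arf6 lowest and Vti1b highest. Of the DNA replication, repair and chromosome genes, 4 of 6 were lower (-0.34), with Rrm2 lowest, and 2 of 8 higher (0.29), with Ncapg2, a condensin subunit, highest at 0.56. Of the signalling and cell death genes, 3 of 6 were lower (-0.46), with Nfkbia, the inhibitor of NF-kappaB, at -0.86, and 7 of 12 higher (0.32), with Traf3, an adaptor of TNF receptors, at 0.61. Of the cytoskeletal genes, 4 of 6 were lower (-0.50) and 1 of 6 higher (0.06).

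The transcription factors and chromatin genes had the widest range of mean log2 ratios of the lists on both sides. It ran from -1.12 to -0.18 in proximal and from -0.43 to 0.82 in distal members. This was also the longest list, with 12 members on each side. Of 12 proximal members, 3 were called lower in all 3 comparisons (-0.56), although 11 were lower in I-TEL and 10 in J. Mycn, a proliferation-driving MYC family factor, had log2 fold changes against lines of its own prefix of -0.31 in XX Wildtype, -0.85 in I-TEL and -0.74 in J, with adjusted p-values of edgeR's quasi-likelihood test of 0.387, 0.00135 and 0.0037. Of 12 distal members, 5 were higher in all 3 (0.29). Fos, an immediate-early factor, was at 223 and 341 TPM in XX Wildtype, 679 and 569 TPM in I-TEL and 545 and 716 TPM in J, against 118 to 767 TPM (median 212 TPM). Whatever the level, median pooled 129 shares in the 6 libraries ran from 47.7 to 53.6% over the proximal and from 26.1 to 30.2% over the distal members of the 9 lists.

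I-TEL and J were compared directly, a difference that did not choose the genes. The median log2 difference of I-TEL over J was 0.00 (quartiles -0.11 and 0.13) for proximal and 0.04 (-0.07 and 0.14) for distal members, beside 0.00 (-0.11 and 0.12) for all 11703 genes. Of the 368 members, 1 was called by edgeR, beside 0.487% of all tested genes. This was Cep170b, a centrosome and microtubule protein, at 155 and 127 TPM in I-TEL, 92.9 and 98.5 TPM in J and 83.0 and 90.7 TPM in XX Wildtype, against 53.4 to 144 TPM (median 89.1 TPM) in the other 24. Both I-TEL libraries were above both J libraries, with a log2 difference of 0.52 (adjusted p = 0.013, edgeR quasi-likelihood test). The call was lost without I-TEL replicate 1 (log2 difference 0.36), J replicate 1 (0.50) or J replicate 2 (0.55). Its 129 share was alike in both, at 22.6 and 21.2% in I-TEL and 22.5 and 24.2% in J.

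The effect in XX Wildtype was also tested against the mean effect in I-TEL and J, each against lines of its own prefix, a contrast added after the values were seen. The reference lines of XX Wildtype are not those of I-TEL and J, so a difference can also come from the references. The median difference was 0.05 (quartiles -0.12 and 0.21) for proximal and 0.07 (-0.16 and 0.23) for distal members, beside -0.01 (-0.21 and 0.18) for all genes. It was called in 36 of 368 members, 24 higher and 12 lower in XX Wildtype, beside 8.51% of all tested genes, so the share of members was near the background. Klf11 was called (log2 difference 0.72, adjusted p = 0.00503 by edgeR's quasi-likelihood test, and 0.0581 without XX Wildtype replicate 2). Against the mean of the other 24 libraries, Klf11 was also higher in XX Wildtype (-0.703) than in I-TEL (-1.26) and J (-1.39). With that common reference, Adssl1 was at -0.625 in XX Wildtype, between J (-0.883) and I-TEL (-0.494). Flrt2 was at 0.503 in XX Wildtype, 0.688 in I-TEL and 1.01 in J. The largest differences were in members of low level, such as Adssl1 at 1.61 (adjusted p = 0.0485) and Flrt2, a cell-adhesion protein, at -1.64 (adjusted p = 0.0153), both by edgeR's quasi-likelihood test. Without XX Wildtype replicate 2, they were 0.69 and -1.24 and neither was called, and the call of Adssl1 was also lost without I-TEL replicate 2 or either J library. Without XX Wildtype replicate 2, 1 member was called, and without J replicate 1, I-TEL replicate 2 or J replicate 2 it was 10, 11 or 21. Dio3, a deiodinase of the imprinted cluster, had a difference of -1.33, whose call was lost without XX Wildtype replicate 2, I-TEL replicate 2 or either J library, with 46.4 and 32.7 TPM in XX Wildtype, 29.7 and 48.8 TPM in I-TEL and 49.8 and 42.3 TPM in J, against 1.43 to 46.2 TPM (median 13.8 TPM). Against the mean of the other 24, the level ratio of Dio3 in XX Wildtype (1.18) lay between those in I-TEL and J. Of 160 allelic counts of Dio3 in the 6 libraries, under the minimum for a share, 10.6% were from 129, against 42.4% in the other 24.

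On the other autosomes, chromosome medians of the 129 share in the 6 libraries lay between 49.9 and 55%, except chromosome 8, where they ran from 51.1 to 65.6%. Among the other 24, single libraries were more than 10 points from 50% on chromosomes 1 (up to 67.8%), 14 (up to 66.6%) and 8 (down to 37.8%). Chromosome 12 was more than 10 points from 50% in all 30 libraries.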

How the data were processed

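Per the submitters' notes and methods, the authors used Trim Galore 0.6.7 for trimming and HISAT2 2.2.1 for alignment to a strain-masked mm10, separated alleles, and deposited raw counts per gene for all reads, 129 reads and Cast reads. Alignments were handled with SAMtools 1.10. The labels name HTSeq 0.12.4 as the counter where the methods name featureCounts with strand. Genes were joined by Ensembl identifier to GENCODE M21 (55240 of 55421 matched). TPM used summed exon lengths. Levels were log2 of CPM plus 0.5 over the mean of the 24 reference libraries plus 0.5, with TMM factors from expressed autosomal genes outside chromosome 12. Allele-assigned reads were 12.2 to 22.0% of counts, and shares needed a mean of 20 of them per library. Allelic counts were scaled by median ratios of allelic counts outside chromosome 12, with a pseudocount of 1. Depth, given with the results, limits shares of single genes most.

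Calls came from edgeR 4.0.16 (glmQLFit and glmQLFTest, R 4.3.3), with 1 term per condition over all 30 libraries and mean TPM over 5 in XX Rnf12. The script was tested on simulated data. DESeq2 1.42.0, other scalings, filters, pseudocounts, references, a replicate block and left-out libraries were the alternatives. Named genes were, per segment, the 5 with the highest TPM and the 3 furthest above and below the segment median (mean ratio of the 6 libraries, at least 20 allelic counts), the genes at the borders of 60 and 80 Mb and at the split, list members, and genes called between I-TEL and J. Other named genes, the split and the contrast of effects were chosen after the values were seen. The members, the lists, the split and the copy ratios were chosen with earlier results of these data known. Python 3.11.15 with scipy 1.17.1 and matplotlib 3.10.9 was used. No libraries of a group were alike within sampling noise (lowest chi-square per degree of freedom 3.42).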

Additional observations from a re-analysis of the deposited data

Results flagged for a closer look

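Chromosome 12 genes outside the selection had lower median 129 shares in the 6 libraries too, on both sides of the split, though not all of them did. Among protein-coding genes at or under the TPM threshold, the 5 proximal genes with enough counts had a median 129 share of 50.0% in the 6 libraries and 72.2% in the other 24, and the 6 distal genes had 30.9 and 67.7%. Of the protein-coding genes left out by symbol, 4 proximal ones had 39.3 and 56.7%, and 5 distal ones had 27.6 and 67.4%. Expressed genes that were not protein-coding had 45.3 and 55.3% in 10 proximal and 31.9 and 70.9% in 11 distal genes, and 8 genes on each side had the lower share in the 6 libraries.

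The effect in XX Wildtype differed from that in I-TEL and J in 36 members by edgeR's test of the difference itself, a share near that of all genes tested. These effects were taken against different reference lines, so a difference can also come from the references. Conditions held 1 or 2 libraries each, so that single libraries far from their group were not looked for.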

How the results depend on the processing

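Every segment value kept its sign. With the same-prefix reference, the XX Wildtype level was -0.33 from 60 to 80 Mb and 0.36 beyond 80 Mb, and with DESeq2 size factors 0.33 beyond. TPM without TMM gave 0.33 there for XX Wildtype, -0.46, -0.24 and 0.42 for I-TEL by segment, and -0.50, -0.33 and 0.36 for J. Means over members gave -0.14 and 0.27 for XX Wildtype in the last 2 segments, -0.18 and 0.31 for I-TEL and -0.22 and 0.27 for J. A TPM over 20 gave -0.21, -0.41 and -0.43 from 60 to 80 Mb for XX Wildtype, I-TEL and J, and -0.59 for J up to 60 Mb, and a TPM over 1 gave -0.29 for I-TEL and -0.36 for J. Keeping the excluded symbols gave -0.27 for XX Wildtype. Leaving out 1 XX Wildtype library gave -0.26 to -0.21 and 0.28 to 0.33 in the last 2 segments.

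Shares of summed counts were 50.4, 37.0 and 25.0% by segment in XX Wildtype, 34.4 and 25.1% in the last 2 in I-TEL and 35.4 and 24.9% in J. At least 50 allelic counts gave 42.7% for I-TEL and 43.6% for J from 60 to 80 Mb, and 51.1% for J up to 60 Mb. Without members of extreme share, XX Wildtype had 41.4 and 26.8%, I-TEL 37.9 and 26.9% and J 39.6%. Left-out libraries gave 50.3 to 51.8% and 26.7 to 28.7% for XX Wildtype and 49.7 to 51.3% for J.

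Of 368 members, 218, 262, 262 and 1 were called in XX Wildtype, I-TEL, J and I-TEL against J, and 93 in XX Wildtype in a fit of its own prefix. With 1 library left out, counts ran from 129 to 158, from 191 to 194, from 172 to 180 and from 0 to 1, and from 1 to 47 for the difference of effects. The replicate block gave 218, 260, 263, 1 and 34. Clone numbers did not pair the libraries throughout. Over 78 pairs of groups, correlations of clone differences ran from -0.392 to 0.746, with a median of 0.0106. In 22 pairs the correlation was over 0.1, so the replicates of some groups did differ together. The causes were not tested. Mean ratios near 0 turned sign with the same-prefix reference in Tmem18 (-0.052), Rad51b (0.0024), Aspg (0.0057) and Clmn (0.069). Low counts limit shares of single genes.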
